A study of Mus musculus with 1753 samples.

Results

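Matrix metalloproteinases (MMPs) and their tissue inhibitors (TIMPs) were followed as 10 genes, 6 MMPs and 4 TIMPs, among the 46517 genes of a table of read counts from single cells of mouse hindlimb muscle. The members were chosen by name, as the entries whose Ensembl identifier carries the symbol Mmp2, Mmp3, Mmp11, Mmp14, Mmp19, Mmp23, Timp1, Timp2, Timp3 or Timp4 in the mouse annotation GENCODE M21. All 10 had counts, and all 10 passed the filter on low counts in each of the 7 comparisons below.

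MMPs are zinc-dependent enzymes that cut the proteins of the extracellular matrix, and most are made as inactive precursors whose propeptide must be removed. TIMPs bind the active site of MMPs and block them, and the outcome for the matrix depends on the amounts of both. The fibroblasts of skeletal muscle build and turn over the connective tissue around the fibres, and mural cells, which are pericytes and smooth muscle cells, wrap its blood vessels.

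In the study, fibroblasts and mural cells of gastrocnemius and soleus were sorted into plates and sequenced one cell at a time with Smart-seq2. This method reads polyadenylated RNA along its whole length and does not tag molecules, so that reads and not molecules are counted. The sort took cells stained for the receptor PDGFRα or PDGFRβ or fluorescent from any of the Acta2, Cspg4, Pdgfra and Pdgfrb reporters named below, and left out cells with the endothelial protein CD31. The mice were adult males on the C57Bl6/J background, and no treatment is named. Labels gave 1753 cells a cluster from 1 to 10, a strain and, for some, the muscle.

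The 5 strain labels were Acta2GFP, C57BL6, Cspg4dsRED, PdgfrbGFP and PdgfraGFP - PdgfrbGFP pool, called the pool below, and values by strain label follow this order. C57BL6 mice carry no reporter. Acta2GFP, Cspg4dsRED and PdgfrbGFP are transgenes driven by regulatory sequence of the gene in the name, and the Pdgfra reporter is a nuclear GFP placed at the Pdgfra locus. Elastase had been added to the dissociation of Acta2GFP muscle, and soleus of 1 mouse of each line had been combined for the pool. The labels name no animal, so each strain label was taken as 1 replicate, on the assumption that they stand for different mice. The p-values measure how far differences between groups varied over the strain labels, which also differ in reporter and sort.

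Clusters 1, 3, 5, 6 and 8 are the endomysial fibroblasts, which lie around single fibres (1116 cells). Clusters 2 and 9 are the perimysial fibroblasts of the sheath around fibre bundles (328 cells), and cluster 4 the paramysial fibroblasts at the border of the perimysium (60 cells). Of the paramysial cells, 46 were of the pool, 6 of Acta2GFP, 4 of PdgfrbGFP, 3 of C57BL6 and 1 of Cspg4dsRED. Cluster 10 is a fibroblast cluster without a class name (62 cells), which the paper defines by Cspg4, Pdgfra and Ngfr and places along the edge of nerve fibres. Cluster 7 holds the mural cells (187 cells). Of the defining markers, the 6 of fibroblasts summed to between 6861 and 15199 scaled counts in each fibroblast class and strain label and to at most 631.4 in mural cells. The 8 of mural cells summed to at least 8533 in mural cells and to at most 709.7 elsewhere. The authors had made the clusters from these same counts, so a difference between clusters describes them and is not independent evidence. The endomysial class was also made up of different clusters in different strain labels. Cluster 6 gave 46 of its 51 cells in Cspg4dsRED and 2 of 60 in Acta2GFP, where cluster 3 gave 39. The part of this make-up in the differences to endomysial cells was not tested.

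Cells had a median depth of 258251 counts, the shallowest 46097 and the deepest 1055869, and depth was lowest in Cspg4dsRED, with a median of 121646 counts. Of the Cspg4dsRED cells, 35.9% held no count of Pdgfra or Pdgfrb, against 4.22% over all cells. The study's methods say that cells expressing neither gene had been removed, and why these remain is not stated. A level below is the mean over cells of counts scaled to 500000 per cell, given per strain label with 3 or more cells of that kind. A cell was said to hold a message at 100 or more scaled counts, which is 51.7 reads in the median cell and 9.22 reads in the shallowest. Levels of different genes were compared only per kilobase of exon.

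Mmp2 lies at chr8:92827291-92853420 on the plus strand of GRCm38, Mmp3 at chr9:7445822-7455975 on the plus strand, and Mmp11 at chr10:75923222-75936496 on the minus strand. Mmp14 lies at chr14:54431612-54445364 on the plus strand, Mmp19 at chr10:128790910-128800824 on the plus strand, and Mmp23 at chr4:155650655-155653384 on the minus strand. The intervals of the inhibitors were chrX:20870166-20874735 for Timp1 on the plus strand, chr11:118301069-118355740 for Timp2 on the minus strand, chr10:86300372-86349506 for Timp3 on the plus strand and chr6:115241892-115252205 for Timp4 on the minus strand. Timp1 lies inside Syn1, Timp3 inside Syn3 and Timp4 inside Syn2, each gene of a pair on the opposite strand from the other. Exons of Syn3 cover 21.3% of the exonic bases of Timp3, and exons of Tmem198b, which is antisense to Mmp19, cover 22.3% of those of Mmp19. The overlap was 5.58% for Mmp11, with Chchd10, and 1.53% for Timp4, with Syn2, and no exon of another gene overlapped those of the other 6 members. Smart-seq2 does not mark the strand, so reads in these stretches cannot be assigned to either gene.

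Promoters of 3 members are shown, since their messages had the most unlike distributions: Mmp3 was held by few cells, Mmp14 by many cells of each fibroblast class, and Timp4 nearly only by mural cells. Each is the 250 bases before the start of transcription, 5′ to 3′ on the strand of the gene, from RefSeq on GRCm38.p6. Capitals mark matches on either strand to 3 motifs that do not overlap each other in these windows. The motif TGANTCA is known as the site of AP-1 factors. The motif TATAAA is the core of the box that positions the polymerase at many starts. The motif GGGCGG is known as the box bound by Sp1-type factors.
Mmp3, chr9:7445572-7445821, plus strand: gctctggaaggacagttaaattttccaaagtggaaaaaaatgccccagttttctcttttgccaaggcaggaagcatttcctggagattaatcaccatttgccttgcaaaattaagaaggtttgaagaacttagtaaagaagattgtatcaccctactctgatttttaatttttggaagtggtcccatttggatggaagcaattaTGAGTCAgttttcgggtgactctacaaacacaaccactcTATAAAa
Mmp14, chr14:54431348-54431597, plus strand: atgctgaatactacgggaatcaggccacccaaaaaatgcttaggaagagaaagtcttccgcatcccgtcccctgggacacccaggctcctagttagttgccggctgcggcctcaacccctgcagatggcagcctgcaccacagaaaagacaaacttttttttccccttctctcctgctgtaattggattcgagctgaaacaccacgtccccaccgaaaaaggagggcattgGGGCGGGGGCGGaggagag
Timp4, chr6:115252206-115252455, minus strand: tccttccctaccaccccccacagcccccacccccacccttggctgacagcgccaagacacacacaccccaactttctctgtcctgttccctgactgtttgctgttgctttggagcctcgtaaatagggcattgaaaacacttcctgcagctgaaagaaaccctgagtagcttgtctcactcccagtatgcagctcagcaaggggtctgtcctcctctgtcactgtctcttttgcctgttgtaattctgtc
The Mmp3 window held TGANTCA, whose first base lies 46 bases before the start, and TATAAA, whose first base lies 7 before it. These motifs occurred in 6.749% and 12.37% of the 32851 RefSeq promoters and in no window of the other 7 members with an entry. GGGCGG occurred in 32.74% of promoters and in those of Mmp11, Mmp14, Timp1, Timp2 and Timp3, and the Timp4 window held none of the 3. Mmp2 and Mmp19 had no entry.

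Most members had their higher levels in fibroblasts, while Timp3 and Timp4 were higher in mural cells. Of the 10 members, 9 differed between mural cells and all fibroblasts, 7 lower and 2 higher in mural cells, in an edgeR quasi-likelihood fit over 13880 genes of which 15.4% were called at an adjusted p under 0.05. The median share of mitochondrial counts was 2.40% to 3.04% in mural cells of the 5 strain labels and 0.97% to 1.73% in the fibroblast classes, and its part in the differences was not tested. Perimysial against endomysial fibroblasts gave 3 members, Mmp2 and Timp1 higher and Mmp19 lower, where 5.57% of 14121 genes were called. Paramysial against endomysial fibroblasts gave 1, Timp3, which was lower, where 0.0963% of 14533 genes were called. Between the 5 endomysial clusters 2 members differed, Mmp23 and Timp2, where 5.46% of 16498 genes were called. Cluster 9 against cluster 2 gave 3, Timp1 and Mmp14 higher and Timp2 lower in cluster 9, where 0.920% of 11843 genes were called.

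Cluster 10 against endomysial fibroblasts gave 0 members in edgeR, where 0.442% of 12455 genes were called. At an unadjusted p under 0.05 it gave 5 members and 1113 genes, and DESeq2, another count test, called 3 members and 7.97% of genes. Soleus against gastrocnemius endomysial fibroblasts also gave 0 in edgeR, where 0.00% of 16337 genes were called. There 3 members and 807 genes passed the unadjusted threshold, and DESeq2 called 1 member and 0.679% of genes. The median log2 difference over all genes tested was −0.46 for mural cells, −0.19 for perimysial, −0.86 for paramysial and −0.41 for cluster 10 cells, −0.12 for cluster 9 and −0.02 for soleus.

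**Figure D1:**
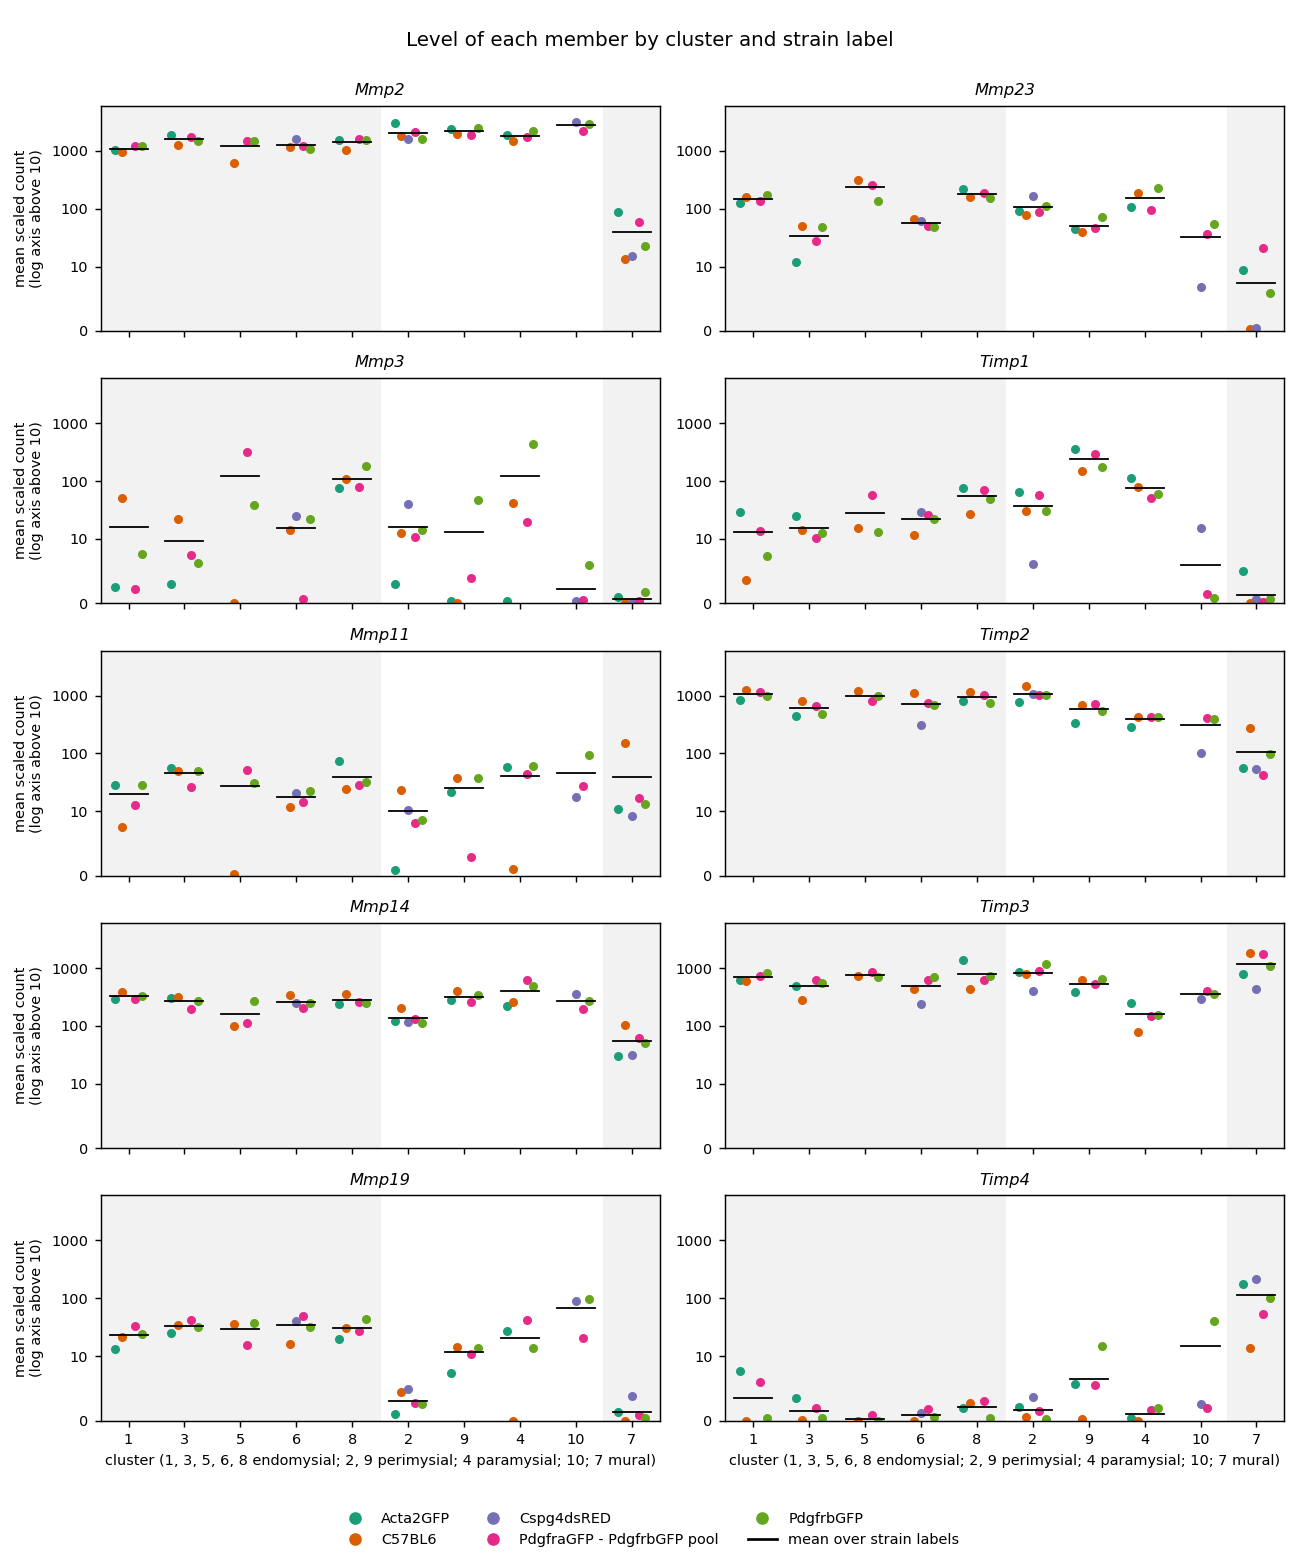
Mean scaled count of each member (vertical axis, log scale above 10 and linear below) in each cluster (horizontal axis). Each point is a strain label with 3 or more cells, lines are means over strain labels, and Mmp2 falls from between 607.5 and 3181 in fibroblast clusters to between 13.4 and 86.1 in mural cells, where Timp4 is highest.

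Mmp2 codes for gelatinase A, which cuts denatured collagens and type IV collagen. It was the most abundant member per kilobase in fibroblasts, at 430.8 ± 68.7 scaled counts per kilobase in endomysial cells (SD, n = 5 strain labels), and 98.8% of all fibroblasts held it. Its mean scaled counts in endomysial fibroblasts were 1729, 1099, 1516, 1392 and 1525 in the order of strain labels given above. In mural cells they were 86.1, 13.4, 15.04, 22.5 and 57.9, so that the groups lay far apart, and 9 of 187 mural cells held Mmp2.

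In the fit, Mmp2 was lower in mural cells, with a log2 difference of −5.87 (adjusted p = 0.00019). The differences within strain labels averaged −5.90 ± 0.51 (SE, n = 5). The mural levels of Mmp2 were highest in Acta2GFP and the pool, where the 6 fibroblast markers summed to 601.7 and 631.4 scaled counts in mural cells. This sum was 111.7 in Cspg4dsRED, 479.3 in PdgfrbGFP and 409.3 in C57BL6, where mural Mmp2 was lowest. The part of these messages in the mural levels was not tested.

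Perimysial fibroblasts held more Mmp2 than endomysial ones in each strain label, at 2585, 1819, 1716, 1751 and 2037 scaled counts. The ranges of both classes overlapped, while the differences within strain labels ran only from 0.36 to 0.70 on the log2 scale. The fitted difference was 0.51 ± 0.06 (SE, here and below that of the differences within strain labels, n = 5; adjusted p = 0.013). The call was lost without C57BL6, without PdgfrbGFP and in a fit without the strain label as a block (adjusted p up to 0.34).

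Cluster 10 had the highest Mmp2 of all clusters, at 3181 in Cspg4dsRED, 2887 in PdgfrbGFP and 2156 in the pool. Each value was above the endomysial level of its strain label, with a fitted log2 difference of 1.02 ± 0.27 (SE, n = 3) whose adjusted p was 0.22 in edgeR and 0.032 in DESeq2. Ordered by mean, the clusters ran 10, 9, 2, 4, 3, 8, 6, 5, 1 and 7, and the ranges of strain labels overlapped between neighbours in 8 of 9 pairs. The exception was cluster 1 against cluster 7, the mural cells.

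Mmp14 codes for the membrane-anchored MT1-MMP, which activates the precursor of gelatinase A with the help of TIMP-2. Its mean scaled counts were 286.9, 333.3, 247.4, 265.5 and 216.6 in endomysial and 224.5, 218.9, 156.3, 147.2 and 161.5 in perimysial fibroblasts. Perimysial cells were lower in each strain label, with a fitted log2 difference of −0.57 ± 0.12 (SE, n = 5) that did not pass (adjusted p = 0.079). Mural cells had 30.5, 104.02, 31.3, 50.4 and 62.4, all below the fibroblast levels given above. Their fitted difference was −2.36 (adjusted p = 0.017), and in C57BL6, with 9 mural cells, the summed counts differed by 0.14 on the log2 scale in the other direction. That call was lost without the block and without any 1 of the other 4 strain labels (adjusted p up to 0.097).

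Within the perimysial class Mmp14 separated the clusters. Cluster 9 had 279.0 scaled counts in Acta2GFP, 407.2 in C57BL6, 344.5 in PdgfrbGFP and 254.6 in the pool, and cluster 2 had between 112.5 and 202.8. The ranges did not overlap, and cluster 9 was higher by 1.20 ± 0.17 on the log2 scale (SE, n = 4; adjusted p = 0.048). The call was lost under 8 of 11 alternatives, which were leaving out any 1 of the 4 strain labels, no block, plates as units, cells weighted alike and a minimum of 10 cells (adjusted p up to 0.23). Paramysial cells had 221.4 in Acta2GFP, 255.0 in C57BL6, 484.9 in PdgfrbGFP and 610.7 in the pool, and the fitted difference to endomysial cells was 0.69 (adjusted p = 0.73).

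Timp2 codes for the inhibitor that binds MT1-MMP and gelatinase A. Its levels were 551.0, 1064, 351.8, 683.2 and 806.8 in endomysial and 493.5, 1420, 1004, 945.8 and 960.8 in perimysial fibroblasts, which did not differ past the threshold (0.52, adjusted p = 0.29). In mural cells it was at 57.1, 281.2, 54.2, 97.8 and 42.9, lower in each strain label, with a fitted log2 difference of −2.85 (adjusted p = 0.0019) that was kept under all 12 alternative settings. Cluster 9 had 341.7 in Acta2GFP, 693.9 in C57BL6, 552.8 in PdgfrbGFP and 728.5 in the pool, against 784.5 to 1482 in cluster 2, a fitted difference of −1.10 ± 0.17 (SE, n = 4; adjusted p = 0.033). That call was lost under 8 of 11 alternatives.

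Between endomysial clusters, Timp2 ranged from 599.4 ± 166.7 scaled counts in cluster 3 to 1051 ± 178.9 in cluster 1 (SD, n = 4 each). The fitted coefficients spanned 0.83 on the log2 scale (adjusted p = 0.0094), a call that was lost without the block and without Acta2GFP, C57BL6 or PdgfrbGFP (adjusted p up to 0.19). The lowest fibroblast levels stood in cluster 10, at 103.6 in Cspg4dsRED, 394.5 in PdgfrbGFP and 416.9 in the pool. These were below the endomysial values of the same strain labels, with a fitted log2 difference of −1.18 ± 0.32 (SE, n = 3; unadjusted p = 0.0057, adjusted p = 0.26).

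The 3 messages of this activation system met in the same cells to unlike degrees. Mmp2, Mmp14 and Timp2 were all held by 705 of 1116 endomysial cells (63.2%), by 40.9% of the 328 perimysial cells, by 51 of 60 paramysial cells and by 16 of 62 cells of cluster 10 (25.8%). No mural cell of 187 held all 3. In Cspg4dsRED the share was 8.11% in cluster 10 and 23.5% in endomysial cells. It was 62.5% and 62.6% in PdgfrbGFP and 47.1% and 65.2% in the pool. Of the paramysial cells, 46 were of the pool, and 41 of these held all 3. The 46 had a median depth of 648095 counts, against 341184 in endomysial cells of the pool. The part of strain label and depth in these shares was not tested. Mmp2 without Timp2 was found in 31 of 62 cells of cluster 10 and in 6.00% of endomysial cells. Of the cluster 10 cells, 37 came from Cspg4dsRED, the shallowest strain label, where 10 of them held Timp2, against 21 of 25 in the other 2 strain labels.

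Mmp3 codes for stromelysin-1, which cuts proteoglycans, laminin and fibronectin and activates other MMPs. Its message was rare and uneven: 6.83% of fibroblasts held it, the median cell had a level of 0 in each cluster, and the highest cell had 2143 scaled counts. Cluster 8 held it most steadily, at 74.7 in Acta2GFP, 107.03 in C57BL6, 179.95 in PdgfrbGFP and 80.5 in the pool, and 59 of its 253 cells (23.3%) passed. The 25 cells with most Mmp3 carried 70.2% of the Mmp3 counts of cluster 8. Single cells set some levels in clusters 4 and 5, such as 431.1 in paramysial PdgfrbGFP from 1 of 4 cells and 323.4 in cluster 5 of the pool from 1 of 3.

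Over the endomysial clusters, the fitted span of Mmp3 was 4.51 on the log2 scale, and it did not pass (adjusted p = 0.32). Mural cells lay at or below 1.74 in each strain label and were lower in the fit (log2 difference −6.29, adjusted p = 0.0055). Cluster 10 lay between 0.32 and 5.99, and no cell of it held Mmp3. Its fitted difference to endomysial cells was −5.07, with an adjusted p of 0.28 in edgeR and of 5.9e-05 in DESeq2.

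Mmp11, stromelysin-3, was low in each class. It averaged 31.5 ± 14.9 scaled counts in endomysial cells (SD, n = 5), was held by 10.9% of fibroblasts, and showed the same neighbour overlap in 9 of 9 pairs of clusters. It was the 1 member that did not pass the test between mural cells and fibroblasts (−0.45, adjusted p = 0.74). Its mural level of 149.3 in C57BL6 came from 2 of 9 cells, where the other strain labels had 9.23 to 16.9. In the C57BL6 mural cells the 6 immune markers summed to 404.6 scaled counts, with Lyz2, a lysozyme of myeloid cells, at 289.5, and in mural cells of the other strain labels to between 0.58 and 7.59. The part of this in the Mmp11 level was not tested.

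Mmp19 codes for a secreted MMP with basement membrane substrates. Endomysial fibroblasts had 23.8, 27.3, 45.03, 34.8 and 40.5 scaled counts and perimysial fibroblasts 5.17, 5.16, 4.33, 4.29 and 4.74. The perimysial values were the lower in each strain label and the groups did not overlap, with a fitted log2 difference of −2.39 ± 0.33 (SE, n = 5; adjusted p = 0.018). The call was lost without C57BL6, PdgfrbGFP or the pool (adjusted p up to 0.11). Mural cells had at most 3.84 (−5.52, adjusted p = 0.0045). The highest levels stood in cluster 10, at 88.8 in Cspg4dsRED, 95.5 in PdgfrbGFP and 20.7 in the pool, which overlapped the endomysial range (0.64, adjusted p = 0.89). Reads of Mmp19 and of the overlapping Tmem198b cannot be told apart in the shared stretch.

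Mmp23, a membrane-bound MMP released by cleavage within its own chain, split the endomysial clusters. Clusters 5, 8 and 1 were high, at 236.1 ± 90.2 (SD, n = 3), 179.3 ± 30.5 and 147.8 ± 21.6 scaled counts (n = 4). Clusters 6 and 3 were low, at 56.4 ± 8.29 and 34.2 ± 17.8 (n = 4). Every strain label of the first 3 lay at or above 125.3 and every strain label of the last 2 at or below 65.2. The fitted coefficients spanned 2.66 on the log2 scale (adjusted p = 0.0030), a call that was lost without C57BL6 and without the pool. Mural cells had 9.39, 0.31, 0.49, 5.93 and 21.1, below the 59.1 to 100.8 of all fibroblasts (−4.88, adjusted p = 0.0069).

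Timp1 codes for a soluble inhibitor of most secreted MMPs. It was highest in cluster 9, at 353.1 in Acta2GFP, 152.2 in C57BL6, 177.0 in PdgfrbGFP and 290.3 in the pool, and 36 of 59 of these cells held it. Cluster 2, the other perimysial cluster, had between 6.12 and 64.02, and 27 of 269 cells held it. These ranges did not overlap, and cluster 9 was higher by 2.16 ± 0.23 on the log2 scale (SE, n = 4; adjusted p = 0.010). The call was lost under 5 of 11 alternatives, among them leaving out C57BL6, PdgfrbGFP or the pool (adjusted p up to 0.11). In order of mean level, cluster 9 was followed by the paramysial cluster 4, at 112.8 in Acta2GFP, 77.8 in C57BL6, 58.8 in PdgfrbGFP and 50.7 in the pool, and the ranges of these neighbours did not overlap either.

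As a class, perimysial fibroblasts had 254.0, 39.7, 49.9, 52.4 and 115.3 scaled counts of Timp1, against 35.6, 15.8, 33.6, 24.4 and 20.0 in endomysial ones. The fitted difference was 1.65 ± 0.35 (SE, n = 5; adjusted p = 0.027), and leaving out the block or any strain label but Cspg4dsRED ended the call (adjusted p up to 0.13). Cluster 9 made up 23 of 35, 12 of 152, 2 of 18, 13 of 87 and 9 of 36 of the perimysial cells. Cluster 2 alone averaged 37.5 ± 23.3, against 25.9 ± 8.55 in endomysial cells (SD, n = 5), and these ranges overlapped. The part of cluster 9 in the class difference was not tested. Paramysial cells were above endomysial ones in each of 4 strain labels, without passing (1.86, adjusted p = 0.39). Timp1 was at or below 4.95 in mural cells, none of which held it (−6.18, adjusted p = 0.00078). In cluster 10 it was at 15.7 in Cspg4dsRED, 0.83 in PdgfrbGFP and 1.49 in the pool, with a fitted difference to endomysial cells of −3.63 (adjusted p = 0.46 in edgeR and 0.010 in DESeq2).

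Timp3 codes for the inhibitor that is bound to the matrix and also blocks several ADAM and ADAMTS proteases. Mural cells had 795.4, 1853, 430.6, 1089 and 1754 scaled counts, and all fibroblasts together 615.6, 573.1, 289.6, 725.6 and 591.1. Mural cells were higher in each strain label, although the ranges overlapped, with a fitted log2 difference of 1.09 ± 0.33 (SE, n = 5; adjusted p = 0.030). The call was lost without C57BL6, PdgfrbGFP or the pool (adjusted p up to 0.12). Timp3 was held by 87.7% of mural cells and 82.95% of fibroblasts.

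Paramysial fibroblasts stood at the other end. Their Timp3 was at 252.7 in Acta2GFP, 79.97 in C57BL6, 152.9 in PdgfrbGFP and 148.3 in the pool, where endomysial cells of these strain labels had 692.1, 438.2, 672.7 and 645.4. No value overlapped, and the fitted difference was −2.13 ± 0.36 (SE, n = 4; adjusted p = 0.034). DESeq2 did not call it (adjusted p = 0.064), and it was lost without the block, without PdgfrbGFP and without the pool, which holds 46 of the 60 paramysial cells. The paramysial values of Acta2GFP, C57BL6 and PdgfrbGFP rest on 6, 3 and 4 cells. Exons of Syn3 overlap Timp3, and the share of Timp3 reads that this makes uncertain was not measured.

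Mural cells were also split by Rgs5, a regulator of G protein signalling known from pericytes. In the cells with Rgs5 the smooth muscle myosin Myh11 was at 1503, 488, 1887, 2190 and 598 scaled counts. In those without it Myh11 was at 2281, 3720, 2593, 3075 and 2646, the higher in each strain label. Among the cells with Rgs5, Myh11 was lower in C57BL6 and the pool than in the other 3 strain labels. These cells are therefore called by Rgs5 and not pericytes. Mean Rgs5 in mural cells was 163.7, 2636, 132.6, 172.4 and 1971 scaled counts, so C57BL6 and the pool, the 2 strain labels with the highest Timp3, were also the highest in Rgs5. Within 4 of the 5 strain labels the mural cells with Rgs5 had more Timp3 than those without, such as 2610 against 906.1 in C57BL6 (5 and 4 cells) and 3068 against 658.5 in the pool (5 and 6 cells). PdgfrbGFP went the other way, with 893.7 against 1135. These splits rest on 4 to 64 cells a side and were not tested.

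Timp4 codes for an inhibitor known from heart and muscle vessels. It was at 177.9, 13.7, 216.3, 99.7 and 54.2 scaled counts in mural cells and between 0.69 and 3.61 in all fibroblasts, so that every mural value lay above every fibroblast value. The fitted log2 difference was 5.79 ± 0.62 (SE, n = 5; adjusted p = 0.00060), and no alternative setting ended the call. Only 39 of 187 mural cells (20.9%) held Timp4, with 1 cell at 2051 scaled counts, and 33 of these held Timp3 as well. In the split by Rgs5, Timp4 was held in Acta2GFP by 0 of 11 mural cells with Rgs5 and 17 of 45 without. These counts were 0 of 5 and 1 of 4 in C57BL6 and 0 of 7 and 5 of 30 in PdgfrbGFP, and were not tested. In Cspg4dsRED 3 of 10 cells with Rgs5 and 11 of 64 without held it, and in the pool 1 of 5 and 1 of 6. Outside the mural class, the level of 40.9 in cluster 10 of PdgfrbGFP was the highest and came from 1 of 8 cells. In these 8 cells the 6 endothelial markers summed to 207.0 scaled counts, against 10.7 and 20.6 in cluster 10 of the other strain labels, and their part in the Timp4 level was not tested.

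The members not given above for a comparison did not pass it. Against endomysial cells, perimysial cells had fitted log2 differences of −1.48 for Mmp3, −1.28 for Mmp11, 0.28 for Mmp23, 0.49 for Timp3 and 0.59 for Timp4 (adjusted p from 0.25 to 0.80). Paramysial cells had 0.23 for Mmp2, 0.20 for Mmp3, −0.84 for Mmp11, −1.12 for Mmp19, 1.005 for Mmp23, −0.97 for Timp2 and −1.50 for Timp4 (adjusted p from 0.38 to 0.98). Cluster 10 had 0.17 for Mmp14, 0.57 for Mmp11, −1.85 for Mmp23, −0.24 for Timp3 and 1.93 for Timp4 (adjusted p from 0.55 to 0.94). For cluster 9 against cluster 2 the values were −0.03 for Mmp2, −2.67 for Mmp3, 1.11 for Mmp11, 1.94 for Mmp19, −1.11 for Mmp23, −0.94 for Timp3 and 1.87 for Timp4 (adjusted p from 0.10 to 0.99). Between endomysial clusters the coefficients spanned 0.48 for Mmp2, 1.06 for Mmp14, 1.55 for Mmp11, 0.57 for Mmp19, 1.82 for Timp1, 0.77 for Timp3 and 5.56 for Timp4 (adjusted p from 0.25 to 0.96).

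**Figure D2:**
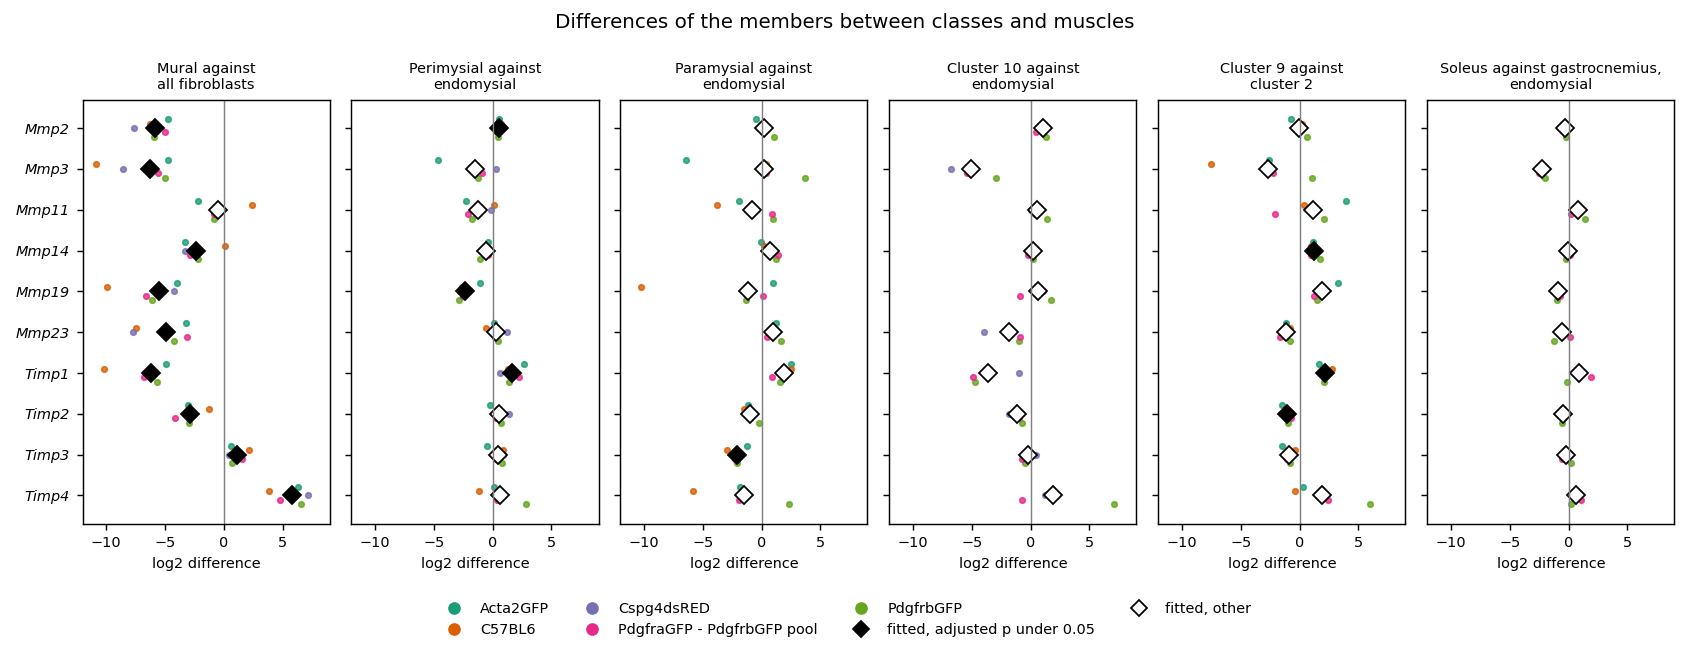
Log2 difference of each member (horizontal axis) in 6 comparisons (panels), from counts summed per strain label. Coloured points are single strain labels and diamonds the fitted values, black where the adjusted p is under 0.05. In mural cells 7 black diamonds lie below 0 and those of Timp3 and Timp4 above it, and in soleus against gastrocnemius none is black.

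Per kilobase of exon, the 6 MMPs summed to 550.9 ± 54.2 scaled counts in endomysial cells, 674.0 ± 95.05 in perimysial cells (SD, n = 5), 762.8 ± 229.8 in paramysial cells (n = 4), 910.1 ± 180.1 in cluster 10 (n = 3) and 39.2 ± 23.3 in mural cells (n = 5). On average Mmp2 made up 77.9% of this sum in endomysial cells, 86.9% in perimysial cells and 89.5% in cluster 10, but 33.8% in mural cells. Over strain labels the mural share of Mmp2 ran from 5.26% to 64.6% and that of Mmp11 from 9.98% to 71.4%. The 4 TIMPs summed to 273.5 ± 69.4, 450.7 ± 56.4, 204.7 ± 20.3, 130.5 ± 43.1 and 193.3 ± 77.3 in the same order. The ratio of the TIMP sum to the MMP sum was 0.50 ± 0.16, 0.68 ± 0.10, 0.29 ± 0.08, 0.15 ± 0.07 and 5.59 ± 1.75. In mural cells it was at least 3.75 in each strain label and in fibroblast classes at most 0.81, and these are sums of messages, not of proteins. The MMP sum also leaves out the MMPs that are not members. Over all cells of a cluster, Mmp17 averaged 58.5 scaled counts in mural cells and at most 3.40 in a fibroblast cluster. Mmp16 averaged 0.28 in mural cells and up to 29.7 in a fibroblast cluster.

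The make-up of the TIMP sum differed between the classes. Timp2 gave 63.3% of it in endomysial, 55.6% in perimysial, 50.02% in paramysial cells and 55.6% in cluster 10, but 13.2% in mural cells, where Timp3 gave 71.8% and Timp4 13.97%. Timp1 gave 12.1% in endomysial, 24.99% in perimysial and 40.5% in paramysial cells. These are means, and over strain labels the Timp1 shares ran from 5.16% to 23.6%, 8.88% to 59.5% and 31.1% to 54.9%. In mural cells the share of Timp3 ran from 50.7% to 91.3% and that of Timp4 from 0.77% to 35.2%. Cells that held no TIMP were mostly those of Cspg4dsRED, the shallowest strain label, where they made up 37.8% of cluster 10, 23.5% of endomysial and 18.9% of mural cells. In the other strain labels these shares were at most 5.88%, 1.01% and 9.09%. Cells with no member at all numbered 12, all of them mural cells of Cspg4dsRED. These sums were not tested.

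**Figure D3:**
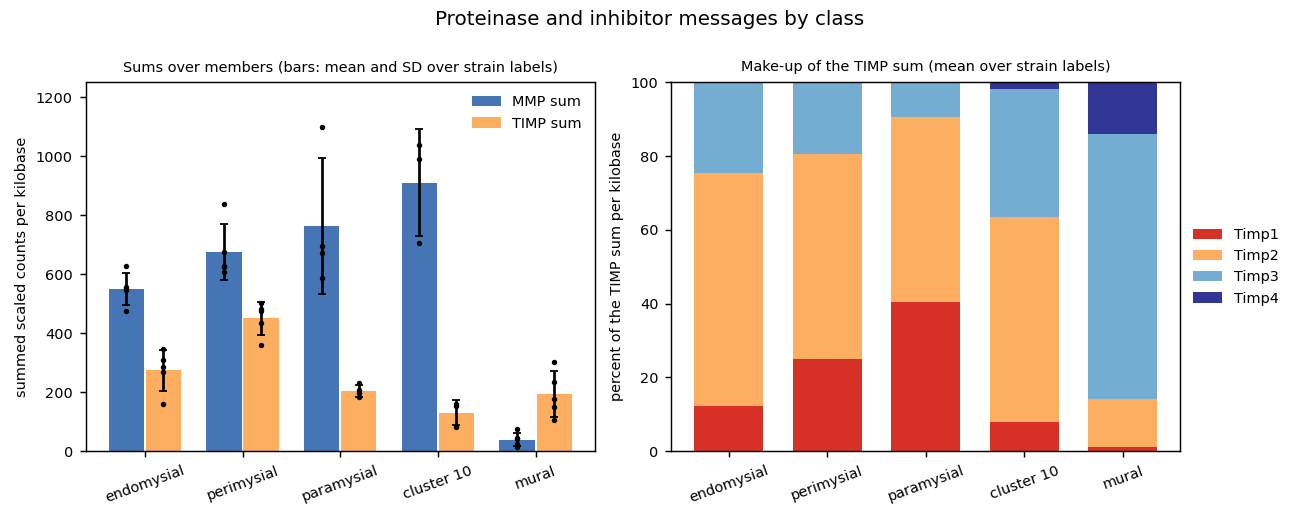
Left, summed scaled counts per kilobase of the 6 MMPs and the 4 TIMPs (vertical axis) by class, with bars as means, whiskers as SD and points as strain labels (n = 3 to 5). Right, the share of each TIMP in the TIMP sum in percent; the MMP bar is the higher in the 4 fibroblast classes and the TIMP bar in mural cells, where Timp3 fills 71.8%.

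Whether the members differ between soleus and gastrocnemius can be asked where the muscles had been kept apart, in PdgfrbGFP and the pool. This is the comparison that does not rest on the clusters' own counts, but it has 2 strain labels and 1 residual degree of freedom, and in the pool each muscle filled a plate of its own, so muscle and plate cannot be told apart there. Mmp3 in endomysial cells was at 138.4 in gastrocnemius and 47.7 in soleus of PdgfrbGFP, and at 22.1 and 4.39 in the pool. Soleus was lower in both, with a fitted log2 difference of −2.26 ± 0.26 (SE, n = 2), an adjusted p of 0.97 and an unadjusted p of 0.00055 in edgeR, and an adjusted p of 1.67e-09 in DESeq2.

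Within cluster 8 alone, where most Mmp3 cells lay, soleus was lower as well. The levels were 319.1 in gastrocnemius and 156.2 in soleus of PdgfrbGFP (47 and 26 cells) and 114.4 and 36.03 in the pool (17 and 13 cells). Cluster 8 took 41.96% of gastrocnemius and 28.9% of soleus endomysial cells in PdgfrbGFP, and 8.76% and 12.04% in the pool. Timp2 was also lower in soleus in both strain labels, from 915.5 to 643.7 and from 873.1 to 687.8 (−0.50, unadjusted p = 0.026), and so was Mmp19, from 45.1 to 26.2 and from 43.2 to 35.6 (−0.87, unadjusted p = 0.016). Neither passed, with an adjusted p of 0.97 each. The muscles also differed in their endomysial clusters. In PdgfrbGFP, cluster 3, the endomysial cluster with the lowest mean Timp2, made up 16.96% of gastrocnemius and 56.7% of soleus cells, and in the pool 59.8% and 43.5%. Within cluster 3 Timp2 was lower in soleus in both strain labels, at 825.4 and 522.3 in PdgfrbGFP and 729.9 and 519.1 in the pool. Within cluster 8 it was at 842.5 in gastrocnemius and 932.7 in soleus of PdgfrbGFP and at 1174 and 872.5 in the pool, so that the direction turned in 1 of 2 strain labels. The part of the clusters in the difference was not tested. In the summed counts of the fit, Mmp2 (−0.32) was lower and Mmp11 (0.82) and Timp4 (0.63) were higher in soleus in both strain labels without passing either threshold. Mmp14, Mmp23, Timp1 and Timp3 had differences of opposite sign in the 2 strain labels, such as −0.099 in PdgfrbGFP and 1.87 in the pool for Timp1, whose mean scaled count was higher in soleus in both.

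In perimysial cells Timp1 was at 25.3 in gastrocnemius and 133.6 in soleus of PdgfrbGFP and at 20.6 and 233.8 in the pool, from 16 to 20 cells each. Of the soleus perimysial cells, 9 of 16 in PdgfrbGFP and 8 of 16 in the pool were of cluster 9, the Timp1-rich cluster, against 1 of 19 and 1 of 20 in gastrocnemius. Within cluster 2 alone Timp1 was at 24.6 and 20.1 in PdgfrbGFP and at 20.0 and 144.9 in the pool, so that the higher level in soleus was kept in 1 of 2 strain labels. The differences between muscles in perimysial cells were not tested.

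**Figure D4:**
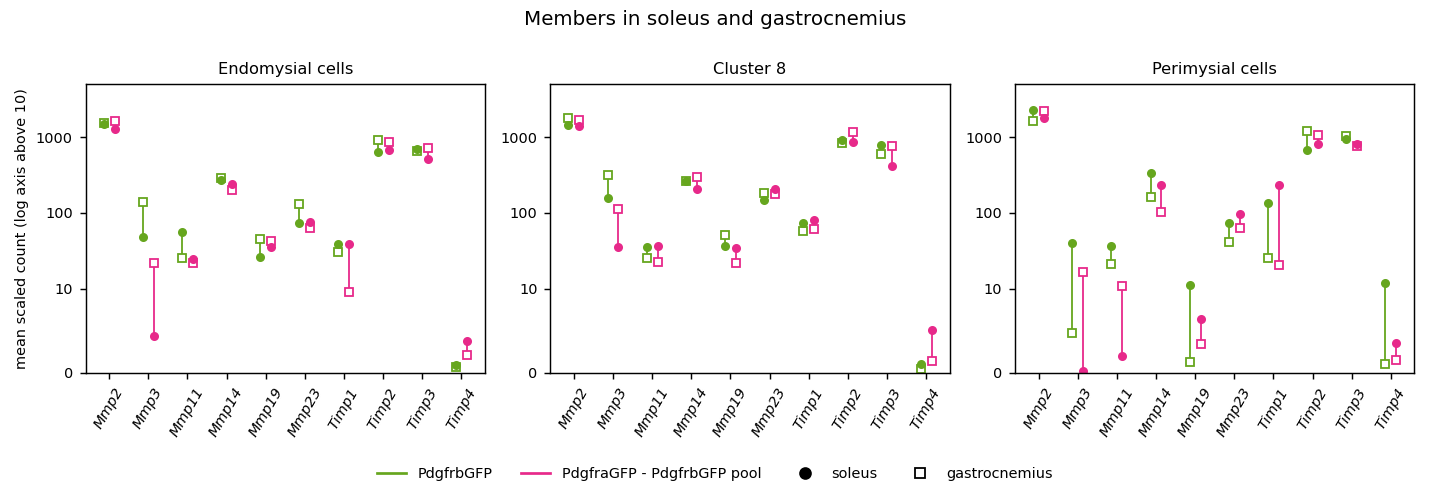
Mean scaled count (vertical axis, log scale above 10 and linear below) of the members in soleus (filled) and gastrocnemius (open), for endomysial cells, cluster 8 and perimysial cells, in the 2 strain labels with the muscles apart. Mmp3 is lower in soleus in both strain labels in endomysial cells and in cluster 8, and Timp1 is higher in soleus in both in perimysial cells.

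Other genes that act on proteases at the cell surface were followed as a list of 40, made of plasminogen activators, serpins, cathepsins, proprotein convertases, collagen C-proteinases and receptors. In mural cells, 18 of the 33 tested were lower than in fibroblasts and 0 higher, where 15.4% of all genes were called, and the list median was −2.47 against −0.46 over all genes. The largest changes were Dpp4 (a dipeptidyl peptidase, −6.94), Pcsk6 and Pcsk5 (convertases that cut propeptides, −6.59 and −6.45) and Pcolce2 (an enhancer of collagen C-proteinase, −6.42). In perimysial cells 5 of 34 were higher and 5 lower than in endomysial ones, where 5.57% of all genes were called, and of these Spock3, a testican proteoglycan, was at 7.65, Plau, the urokinase activator of plasminogen, at −5.06, its inhibitor Serpine2 at −4.74 and the serine protease Htra3 at −2.63.

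Cluster 10 had 1 of 33 higher and 2 lower than endomysial cells, where 0.442% of all genes were called. The higher one was A2m, which codes for the broad protease trap alpha-2-macroglobulin, at 82.6 ± 16.7 scaled counts (SD, n = 3) against means of 0.12 or less in the other classes, and the lower ones were Pcsk6 (−7.18) and Pcolce2 (−6.90). Between endomysial clusters 17 of 34 differed, against 5.46% of all genes, among them the urokinase receptor Plaur (span 6.73), Dpp4 (5.81) and Pcsk6 (3.72). Cluster 9 was lower than cluster 2 in 2 of 31, against 0.920% of all genes called, namely Pcolce2 (−5.86) and the C1 inhibitor Serping1 (−2.58). Paramysial cells gave 0 of 33 in edgeR, where 11 of these and 981 of all 14533 genes passed an unadjusted p under 0.05 and DESeq2 called 3 of these and 5.48% of all genes. Soleus gave 0 of 33, where 3 passed the unadjusted threshold and DESeq2 also called 0.

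Of 20 matrix proteins that MMPs are known to cut, 19 were tested, and 15 were lower in mural cells and 0 higher (median −3.94, with 15.4% of all genes called). Between endomysial clusters 13 differed (5.46% of all genes), and cluster 9 had 3 higher and 3 lower than cluster 2 (0.920%). In perimysial cells 7 were higher and 9 lower (5.57%), among them Tnc (tenascin-C, 8.39) and Lamb1 (a laminin chain, −5.09). In paramysial cells 3 were higher (0.0963% of all genes called), Postn at 5.07, Thbs4 at 3.39 and Eln at 1.93, and in cluster 10 there were 2 (0.442%), Thbs1 at 4.74 and Thbs4 at 1.95. Soleus gave 0, where 5 passed an unadjusted p under 0.05 and DESeq2 called 1. The genes named from this list were chosen after their values were seen. Several of them are markers by which the classes were named, so their direction is not independent. Genes of the response to tissue dissociation, a list of 14 with Fos and Jun, summed to 8472 to 24829 scaled counts in cluster 10 and to 2614 to 8154 in the other classes, and the part of that response in the cluster 10 levels of Mmp2, Mmp3, Timp1 and Timp2 was not tested.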

How the data were processed

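The authors deposited 1 table of raw read counts, with 46517 genes and 92 spike-ins (1.31% of counts) over 1754 cells, of which 1753 matched a label and 1 column was not used. Per the study's methods and processing notes, single reads were demultiplexed with bcl2fastq and trimmed of adapters with trim galore. They were aligned to GRCm38 (mm10) with TopHat2 on Bowtie and Bowtie2 and counted per gene with featureCounts from Subread. Between alignment and counting the methods name a removal of doublets with samtools, and do not say whether PCR copies of reads are meant. The annotation release and the use of strand are not given in the sources used here. The authors also filtered cells and clustered them with pagoda2.

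Symbols and positions came from GENCODE mouse release 21 (46005 identifiers matched, 512 did not). Levels were counts scaled to 500000 per cell without spike-ins. Counts were summed per class and strain label with 3 or more cells and tested over all genes with edgeR 4.0.16 in R 4.3.3 (quasi-likelihood test, TMM, strain label as block, Benjamini-Hochberg adjustment, threshold 0.05, filterByExpr). The block rests on each strain label giving both classes. DESeq2 1.42.0, other size factors, no filter, plates as units, a minimum of 10 cells, equal weights per cell, no block and leaving out each strain label were alternatives. The fits were tested on simulated counts. No doublet caller was run. No 2 columns were identical. Molecules were not tagged, and how far PCR copies remain in the counts is not known. Precision is therefore that of the spread of differences over strain labels.

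The members, lists and tests were chosen with earlier results of these data known. All members are named in each comparison, from the proteolysis list at most the 4 called genes with the largest change, other MMPs held by 1% or more of cells, and for each member the 3 best-correlated genes. A few genes that this rule would name are not reported here.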

Additional observations from a re-analysis of the deposited data

Results flagged for a closer look

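Gaps were examined in 40 sets of strain-label levels, and 3 held a value far from the others (Dixon's test on the log2 scale, which flags about 1 in 20 sets by chance). Mmp11 in paramysial cells was at 1.06 scaled counts in C57BL6, which has 3 such cells, against 44.7 to 60.1 in the other strain labels. Mmp11 in mural cells was at 149.3 in C57BL6 against 9.23 to 16.9. Timp2 in paramysial cells was at 285.1 in Acta2GFP against 420.6 to 433.1.

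In 4 of 30 comparisons of soleus with gastrocnemius, the difference between muscles had opposite signs in PdgfrbGFP and the pool, by more than 0.5 on the log2 scale of the mean scaled count plus 1 in each. In perimysial cells these were Mmp3, at 2.86 in PdgfrbGFP and −3.87 in the pool, and Mmp11, at 0.77 and −1.995. In mural cells they were Mmp23, at −1.44 and 3.11, and Timp2, at −0.50 and 0.53. The mural values rest on 17 gastrocnemius and 6 soleus cells in PdgfrbGFP and on 6 and 5 in the pool. In the same order of muscles, mural Mmp23 was at 1.72 and 0 scaled counts in PdgfrbGFP and at 3.95 and 41.7 in the pool. Perimysial Mmp3 was at 4.69 and 40.4 in PdgfrbGFP and at 16.4 and 0.19 in the pool, from 16 to 20 cells each. The difference between the strain labels was not tested.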

How the results depend on the processing

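Across the alternatives, 629 log2 differences of members kept their direction and side of the threshold, 51 lost a call, 15 gained one and 14 changed sign. All calls in mural cells but those of Mmp14 and Timp3 were kept throughout. Sign changes were found for Mmp11 in mural cells (0.13 with no replicate block, and −1.06 to 0.0060 leaving out 1 strain label), Mmp2 in paramysial cells (−0.077 to 0.36 leaving out 1), Mmp3 in paramysial cells (−1.33 with plates as units, −0.13 with cells weighted alike, −1.11 to 1.24 leaving out 1), Mmp14 in cluster 10 (−0.055 to 0.32 leaving out 1) and in soleus (0.0087 with cells weighted alike), and Mmp2 in cluster 9 (0.018 with RLE factors and with DESeq2, 0.057 with plates, 0.015 with 10 cells, −0.25 to 0.21 leaving out 1).

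DESeq2 called 31.2% of genes in mural, 14.6% in perimysial, 5.48% in paramysial and 7.97% in cluster 10 cells, 15.6% between endomysial clusters, 7.16% in cluster 9 and 0.679% in soleus, and its members called were 0 in paramysial cells, 3 in cluster 10, 5 in cluster 9 and 1 in soleus. Plates as units gave 9.16%, 0.179% and 0.891% of genes in perimysial, paramysial and cluster 10 cells, 10.8% between endomysial clusters and 0.346% in cluster 9, with 2 members in paramysial cells and 0 in cluster 9. With no filter on low counts, 2.2% of genes and 2 members were called in cluster 10 and 2.91% of genes in cluster 9. With no replicate block, the members called were 1 in perimysial and 0 in paramysial cells, 1 between endomysial clusters and 1 in cluster 9, and 0.055% of genes in paramysial cells. A minimum of 10 cells gave 0 members in cluster 9 and could not be run for paramysial cells, of which 1 strain label has that many. RLE factors moved the median of all genes in cluster 10 from −0.41 to −0.27.

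Leaving out 1 strain label at a time gave 8.86% to 16.3% of genes and 7 to 8 members in mural cells, 2.8% to 10% and 0 to 3 in perimysial cells, 0.0688% to 0.44% and 0 to 1 in paramysial cells, 0% to 1.73% and 0 to 1 in cluster 10, 1.47% to 4.47% and 1 to 2 between endomysial clusters, and 0.296% to 0.422% and 0 to 1 in cluster 9. These shares are of the number of genes tested in the main fit, while each fit tested its own number. The highest perimysial share, without Cspg4dsRED, was 1416 of the 15634 genes tested there. With fewer strain labels fewer degrees of freedom remain, and for the other changes the cause was not tested. Depth limits which cells pass 100 scaled counts, which are 9.22 reads in the shallowest cell.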

Other observations

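Of 17 other MMPs, 4 were held by 1% or more of all cells, namely Mmp24 (4.16%), Mmp16 (3.71%), Mmp17 (1.65%) and Mmp27 (1.20%), and 5 had no count. Mmp17, a membrane-anchored MMP, was held by 12.8% of mural cells and was higher there than in fibroblasts, by 6.42 on the log2 scale (adjusted p = 0.0014, edgeR). Mmp16, another membrane-anchored MMP, was lower in mural cells (log2 difference −5.94, adjusted p = 0.0092, edgeR). Mmp27 was held by 6.83% of cluster 1 cells. Of the 6 genes of this list tested in mural cells, 1 was higher and 2 were lower, the third being Mmp28, which was named after its values were seen.

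Genes whose levels ran most like those of a member were read from 40 means of strain label and cluster, over 10191 genes on the scale log2 of the mean plus 1. These points share depth and clusters, so the correlations are descriptions. Mmp2 ran with Serpinf1 (Pearson r = 0.94), Lpar1 (0.93) and Dcn (0.92), which are fibroblast messages here. Timp4 ran with Mcam (0.89), Esam (0.87) and Casq2 (0.85). Mmp14 ran with Lsp1 (0.84), Lama2 (0.81) and Bicc1 (0.81), and Timp1 with Ass1 and F2r (0.82 each). Mmp23 ran with Man2b2 (0.81), Ahnak2 (0.80) and Ust (0.80), and Timp2 with Pcdhga10, Pcdhga12 and Zfhx4 (0.86 each). Mmp3 and Mmp11 had no correlation above 0.67, with Armh4 for Mmp3 and Ano6 (0.63) for Mmp11.

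Over the 40 points, the closest genes to Timp3 and Mmp19 were their antisense neighbours. Timp3 ran with Syn3 at 0.92, and the next gene, Brcc3, stood at 0.67. Mmp19 ran with Tmem198b at 0.87, followed by Gm26565 at 0.83 and Osr2 at 0.82. Without the mural cells, over 35 points, Syn3 stayed the closest to Timp3 (0.91), and Tmem198b (0.795) came after Ecm1 (0.798) for Mmp19. How far shared reads set these values was not tested.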
